A study of Mus musculus with 18 samples.

Results

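The CCN genes encode secreted matricellular proteins, which sit in the extracellular matrix and signal to cells without being part of its scaffold. Their expression was followed in primary mouse preadipocytes, precursors of fat cells, isolated from epididymal white adipose tissue. The members were taken by symbol as Ccn1, Ccn2, Ccn3, Ccn4 and Ccn5, which are 5 of the 17267 gene symbols listed in either of the deposited tables, and all 5 passed the filter on low counts in both. The remaining gene of the family, Ccn6, had 0 to 5 counts per library in undifferentiated cells, was not tested there and was not analysed in differentiated cells.

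CCN proteins share a modular build of an insulin-like growth factor binding domain, a von Willebrand factor type C domain, a thrombospondin type 1 repeat and a cysteine knot at the C-terminal end, of which Ccn5 lacks the knot. They bind integrins, proteoglycans and growth factors such as TGF-b and BMPs, and they thereby alter adhesion, migration and matrix deposition. Ccn1 and Ccn2 are classical targets of the transcriptional coactivators YAP and TAZ, Ccn2 is also a target of TGF-b through Smad3, and Ccn4 and Ccn5 were first described as genes induced by Wnt1. In fat, Ccn2 is known as a profibrotic factor and Ccn5 as a secreted product of mesenchymal precursors.

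All 18 libraries came from cells of wild type (WT) genotype and formed 6 groups of 3. Preadipocytes of mice on a control diet (CD) received TGF-b1 and SB431542, which blocks the kinase of the type I TGF-b receptor, or TGF-b1 alone. Untreated (mock) cells came from mice on a high-fat diet (HFD) and from mice on CD. No group of undifferentiated cells received SB431542 without TGF-b1, so the inhibitor's own effect cannot be separated. A further pair of groups, Itga5-High and Itga5-Low, was sorted with an antibody to CD49e, the integrin alpha 5 subunit encoded by Itga5, and was then differentiated toward adipocytes. Doses, treatment times, the age of the mice, and the diet behind the sorted cells are not stated in the labels.

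Poly(A) RNA was sequenced, and the libraries held 11154450 to 17288614 counts. Levels are given as CPM, the count of a gene scaled to a common library total with TMM factors, as mean ± SD of 3 libraries. The 18 pairs of libraries within groups were nearly as close as sampling noise allows, their chi-square divided by its degrees of freedom being 1.15 to 1.25. Whether the replicates of a group were different animals, cultures or preparations is not stated, and p-values cover the spread among these libraries, which may be technical only. All 12 preadipocyte and fibroblast markers checked were detected in each group, led by Pdgfrb and Dcn in undifferentiated cells. Markers of other cell types were abundant too. In HFD mock, 12 macrophage markers summed to 2630 to 2660 CPM, against 2320 to 2330 CPM for the preadipocyte and fibroblast markers. In CD mock, 10 mesothelial markers summed to 2540 to 2570 CPM, against 3130 to 3160 CPM for the preadipocyte and fibroblast markers. The 9 lymphocyte markers together stayed at or below 0.515 CPM in every library.

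Ccn1, also known as Cyr61, is an immediate-early gene whose product promotes adhesion and angiogenesis. It lies on chromosome 3 at 145646971 to 145649986, on the minus strand (mm10, as are all positions here). Of the 5 members, only Ccn1, a textbook target of the YAP and TAZ partner TEAD, had an entry in the RefSeq promoter table. The 250 bases before its start site (GRCm38.p6, chr3:145649986-145650235, minus strand) are shown. Capitals mark the reverse complement of the TEAD motif GGAATG, 103 to 98 bases before the start, and the reverse complement of TGACGT, the core of the cAMP response element, 59 to 54 bases before it.
Ccn1 promoter: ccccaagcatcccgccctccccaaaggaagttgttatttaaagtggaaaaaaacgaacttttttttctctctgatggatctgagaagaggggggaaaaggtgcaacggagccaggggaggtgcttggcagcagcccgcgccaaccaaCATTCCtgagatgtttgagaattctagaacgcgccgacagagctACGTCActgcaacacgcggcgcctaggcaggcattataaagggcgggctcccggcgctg
Of 32851 promoter windows of the same length searched on both strands, 12.6% held GGAATG and 6.47% held TGACGT. The Smad motif CAGAC (42.2% of windows), the AP-1 motif TGANTCA (6.75%), the TCF/LEF motif CTTTGAT (3.21%) and the CArG box (1.47%) had no match in the Ccn1 window. The 2 capitalised motifs did not overlap, and a match describes letters in the window and not occupancy by a factor.

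Ccn1 levels in the TGF-b1 plus SB431542 libraries were 477, 488 and 473 CPM, and with TGF-b1 alone they were 1392, 1383 and 1377 CPM. They were 1064, 1072 and 1061 CPM in HFD mock, against 655, 655 and 646 CPM in CD mock. None of these 4 groups overlapped, and TGF-b1 was the highest and TGF-b1 plus SB431542 the lowest. In differentiated cells Ccn1 stood at 813, 812 and 811 CPM in Itga5-High and at 658, 648 and 647 CPM in Itga5-Low, also without overlap. The means of the undifferentiated groups spanned 2.89-fold, the narrowest range among the members.

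Ccn2, also known as connective tissue growth factor, lies on chromosome 10 at 24595442 to 24598683, on the plus strand. Its levels were 497, 497 and 490 CPM with TGF-b1 plus SB431542, and 3978, 3972 and 3959 CPM with TGF-b1 alone. HFD mock had 2889, 2922 and 2908 CPM, against 1183, 1180 and 1174 CPM in CD mock. The order of the 4 groups was that of Ccn1, with wider steps between them and a range of 8.03-fold over the undifferentiated groups. The differentiated cells lay close together, at 768, 765 and 757 CPM in Itga5-High and 704, 695 and 723 CPM in Itga5-Low. The lncRNA gene Gm15270 overlaps Ccn2 on the other strand and was listed with 5 to 13 counts per group, beside 6377 or more counts of Ccn2 in any library. Because strandedness is not stated, these counts cannot show whether reads of Gm15270 from the overlap were credited to Ccn2.

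Ccn3, also known as Nov, counters profibrotic actions of Ccn2 in several cell models, and it lies on chromosome 15 at 54745910 to 54753762, on the plus strand.  Its levels were 22.4, 23.8 and 18.2 CPM with TGF-b1 plus SB431542, and 6.65, 6.38 and 6.001 CPM with TGF-b1 alone. HFD mock had 23.97, 26.1 and 23.7 CPM, against 16.2, 19.5 and 17.8 CPM in CD mock. TGF-b1 thus held the lowest level of Ccn3, and the TGF-b1 plus SB431542 libraries overlapped those of CD mock and those of HFD mock. Itga5-High had 28.2, 29.7 and 30.6 CPM, against 103, 97.04 and 98.8 CPM in Itga5-Low. Ccn3 had 72 to 1702 counts per library, and 72 was the lowest count of any member in any library. Its within-group coefficients of variation reached 13.6%, against at most 8.07% for the other members.

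Ccn4, also known as Wisp1, encodes a Wnt-inducible protein that promotes proliferation and matrix formation in bone and lung cells, and it lies on chromosome 15 at 66891369 to 66923202, on the plus strand. With TGF-b1 plus SB431542 it was at 21.1, 20.4 and 19.8 CPM, and with TGF-b1 alone at 685, 692 and 686 CPM. HFD mock had 345, 338 and 347 CPM, against 235, 241 and 242 CPM in CD mock. The groups kept the order of Ccn1 and Ccn2 without overlap, over a range of 33.7-fold. In differentiated cells the groups overlapped, at 109, 115 and 111 CPM in Itga5-High and 110, 112 and 114 CPM in Itga5-Low.

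Ccn5, also known as Wisp2, lies on chromosome 2 at 163820834 to 163833148, on the plus strand. With TGF-b1 plus SB431542 it was at 19.9, 22.7 and 19.8 CPM, and with TGF-b1 alone at 120.3, 121 and 116 CPM. HFD mock had 628, 623 and 630.4 CPM, against 179, 175 and 179 CPM in CD mock. Here CD mock lay above TGF-b1, and HFD mock was the highest of the undifferentiated groups, again without overlap. Differentiated cells had higher values still, at 922, 944 and 922 CPM in Itga5-High and 962, 979 and 981 CPM in Itga5-Low. Over the undifferentiated groups Ccn5 spanned 30.2-fold, next to the 33.7-fold of Ccn4. The tables of undifferentiated and differentiated cells were scaled separately, and levels across them are only set side by side.

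**Figure D1:**
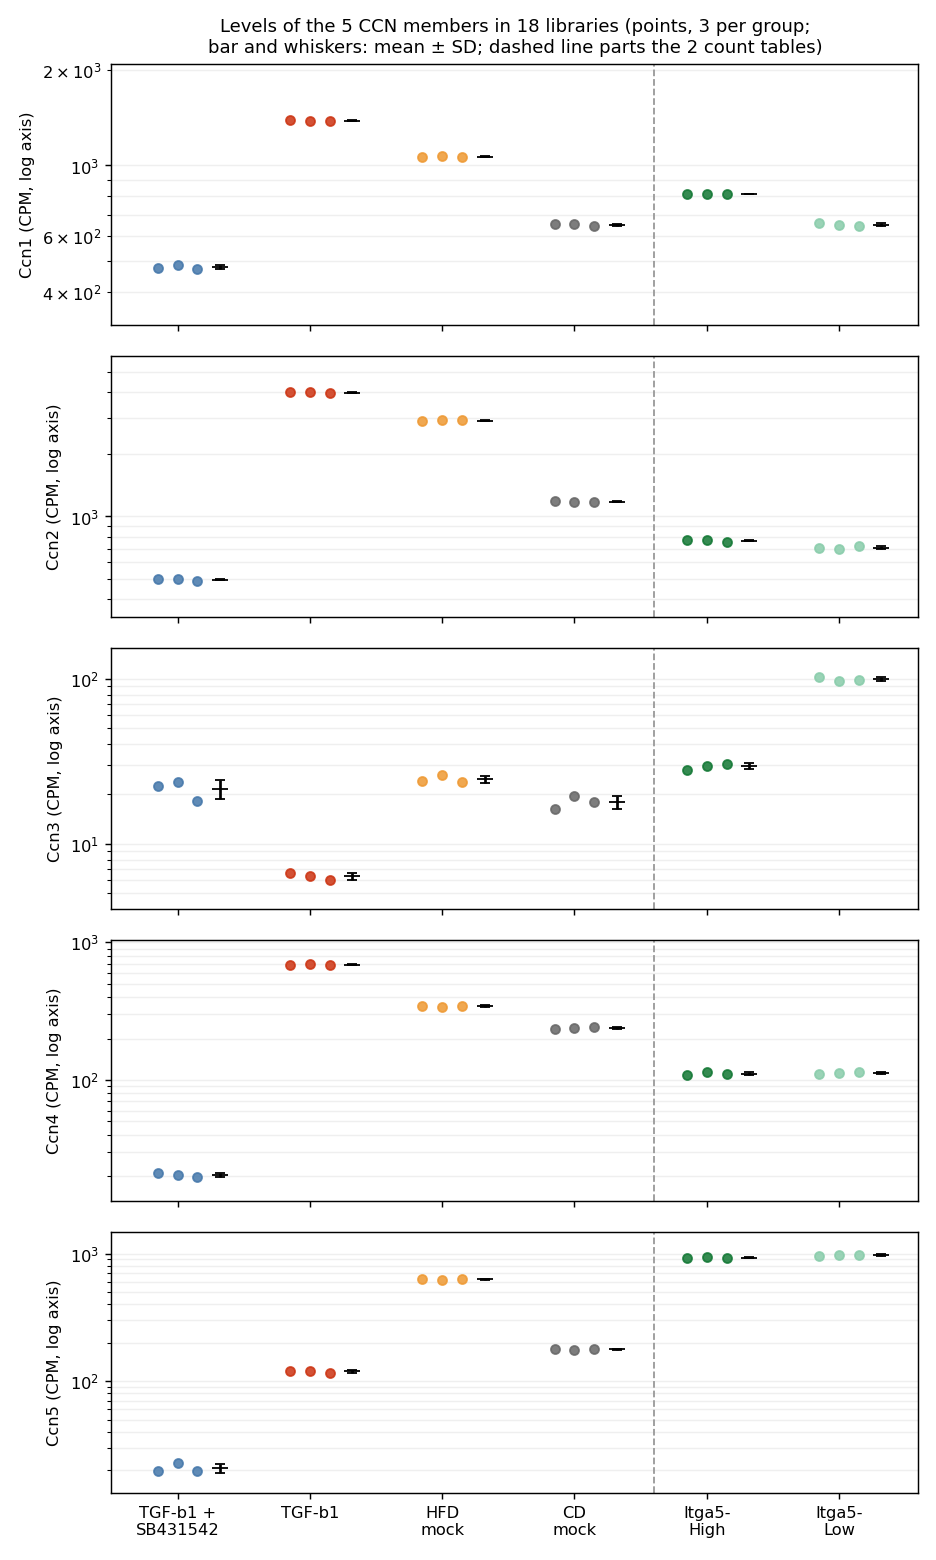
CPM of each member (log axis, a different range in each panel) in every library, with the mean and SD of each group beside its 3 points. TGF-b1 is the highest undifferentiated group for Ccn1, Ccn2 and Ccn4 (1384, 3970 and 687 CPM) and the lowest for Ccn3 (6.35 CPM), while HFD mock is the highest for Ccn5 (627 CPM).

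The comparison of TGF-b1 with CD mock bears on what the cytokine does to the family. Ccn2, Ccn4 and Ccn1 were higher with TGF-b1, while Ccn3 and Ccn5 were lower, so the family split. Ccn2 averaged 3970 ± 9.83 CPM with TGF-b1 and 1179 ± 4.45 CPM in CD mock, a 3.37-fold rise, or 1.75 ± 0.0092 on the log2 scale (fold change ± SE). Ccn4 rose 2.87-fold (1.52 ± 0.018 log2) and Ccn1 rose 2.12-fold (1.09 ± 0.012 log2). Ccn3 was 2.84-fold lower, at 6.35 ± 0.327 CPM with TGF-b1 against 17.8 ± 1.68 CPM in CD mock (-1.51 ± 0.11 log2). Ccn5 was 1.49-fold lower, at 119 ± 2.82 CPM with TGF-b1 against 178 ± 2.43 CPM in CD mock (-0.58 ± 0.028 log2).

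All 5 members were called in the quasi-likelihood test of edgeR with Benjamini-Hochberg adjustment, the largest adjusted p being 1.02e-15 for Ccn3. With an adjusted p under 0.05 as the threshold, 67.6% of the 14078 genes tested were called, 33.4% higher and 34.2% lower, and 69.4% were without overlap between the groups, so a call as such does not set the members apart. By size, Ccn1, Ccn2 and Ccn4 were in the 3.59% of genes called at least 1 log2 unit higher, and Ccn3 in the 11.2% called at least 1 log2 unit lower. By total counts Ccn1 was at 0.94 log2, below that size. Smad7, the inhibitory Smad that TGF-b induces, was at 145 ± 0.565 CPM with TGF-b1 and 88.8 ± 3.38 CPM in CD mock.

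Of 24 TGF-b and Smad target genes, which include no CCN gene, 18 rose and 5 fell with TGF-b1, with a median of 0.73 log2 against -0.02 over all genes tested. Pmepa1, which encodes an inhibitor of Smad signalling, rose 3.40-fold, while Pdgfb and Col3a1 were among the 5 that fell. Of 20 target genes of YAP, TAZ and TEAD outside the family, 15 rose and 2 fell, with a median of 0.42, or 12 and 6 when libraries were scaled by total counts. Among them Ankrd1, a muscle ankyrin repeat protein often used as a YAP readout, rose 3.80-fold and Nuak2, a kinase, 5.06-fold. The 2 that fell were Ptpn14 and Arhgef17. SRF and MRTF target genes rose in 17 of 20 and fell in 3, with a median of 0.84. The calponin gene Cnn1 rose 6.68-fold, while Egr1 and Fos were among the 3 that fell. Wnt and beta-catenin target genes, by contrast, rose in 6 and fell in 9 of 16 tested, with a median of -0.85. Nkd1, a feedback inhibitor of Wnt signalling, was 4.20-fold lower, while Myc and Bambi were among the 6 that rose.

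Among 20 integrin subunits and co-receptors reported to bind CCN proteins, 9 rose and 9 fell with TGF-b1. Itga5 was at 1299 ± 5.02 CPM with TGF-b1 and 376 ± 6.62 CPM in CD mock, and Itgb8 was 34.8-fold lower, at 0.538 ± 0.199 CPM with TGF-b1 against 18.7 ± 1.24 CPM in CD mock. The extracellular partners of CCN proteins rose in 6 and fell in 8 of 16, with Tgfb1 itself 1.89-fold higher and the proteoglycan decorin gene Dcn 5.95-fold lower. Other matricellular genes rose in 8 and fell in 9 of 19 tested, with 2 not called. The directions were about as even as over all genes tested (33.4% higher and 34.2% lower), though a larger share of the list was called. Thrombospondin 1, encoded by Thbs1, rose 3.46-fold, and Tnxb, which encodes tenascin X, was 11.9-fold lower. Regulators of CCN gene transcription rose in 12 and fell in 7 of 25, a balance that turned to 8 higher and 12 lower with total counts. Mrtfa, the coactivator of SRF, rose 2.06-fold and Smad3 was 2.24-fold lower.

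Cell type markers moved beside these changes. Markers of preadipocytes and fibroblasts were lower in 11 and higher in 1 of 12, at a sum of 1560 to 1580 CPM with TGF-b1 and 3130 to 3160 CPM in CD mock. All 12 adipocyte markers tested were lower, at 105 to 110 CPM with TGF-b1 and 288 to 291 CPM in CD mock. The 10 mesothelial markers summed to 690 to 706 CPM with TGF-b1 and 2540 to 2570 CPM in CD mock, and the 9 endothelial markers to 177 to 181 CPM with TGF-b1 and 390 to 408 CPM in CD mock. Their part in the values of the CCN genes was not tested, and in RNA from mixed cells, fewer cells of a type and less RNA per cell cannot be told apart.

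The comparison of TGF-b1 plus SB431542 with TGF-b1 alone shows the members with the receptor kinase inhibited. Ccn4, Ccn2, Ccn5 and Ccn1 were lower with the inhibitor and Ccn3 was higher. Ccn4 was 33.6-fold lower, at 20.4 ± 0.691 CPM with TGF-b1 plus SB431542 and 687 ± 3.98 CPM with TGF-b1 (-5.07 ± 0.028 log2), the 50th lowest log2 fold change of the 14078 genes tested. Ccn2 was 8.02-fold lower (-3.00 ± 0.010 log2), Ccn5 was 5.71-fold lower (-2.51 ± 0.044 log2) and Ccn1 was 2.89-fold lower (-1.53 ± 0.013 log2). Ccn3 rose 3.40-fold, to 21.5 ± 2.91 CPM with TGF-b1 plus SB431542 against 6.35 ± 0.327 CPM with TGF-b1 (1.77 ± 0.10 log2). By edgeR all 5 were called, the largest adjusted p being 3.71e-19 for Ccn3, where 79.7% of all genes tested were called, 41.4% higher and 38.3% lower. All 5 were also without overlap between the groups, as were 80.2% of all genes tested. By size, the 4 lower members were in the 7.66% of genes called at least 1 log2 unit lower, and Ccn3 was in the 18.1% called at least 1 log2 unit higher.

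Both comparisons used the same TGF-b1 libraries, so their values are set side by side and not correlated. Ccn1, Ccn2 and Ccn4 were higher with TGF-b1 than in CD mock and lower with the inhibitor than with TGF-b1, and Ccn3 was lower in the first comparison and higher in the second. Ccn5 was lower in both, by 0.58 log2 with TGF-b1 relative to CD mock and by a further 2.51 log2 with the inhibitor relative to TGF-b1.

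With the inhibitor, 19 of the 24 target genes of TGF-b and Smad fell and 5 rose, with a median of -1.39 log2 against 0.04 over all genes tested. Pmepa1 changed by -4.53 ± 0.028 log2. YAP, TAZ and TEAD target genes fell in 17 and rose in 2 of 20 (median -0.62), Ankrd1 being 5.61-fold lower, and SRF and MRTF target genes fell in 17 and rose in 3 of 20 (median -1.46), Cnn1 being 68.0-fold lower. Wnt target genes rose in 10 and fell in 5 of 16 (median 1.23), with the cyclin gene Ccnd1 9.21-fold and Nkd1 7.52-fold higher. Receptors for CCN proteins rose in 10 and fell in 9 of 20, Itga5 being 8.36-fold lower and Notch1, which binds Ccn3, 4.61-fold higher. Extracellular partners rose in 9 and fell in 6 of 16, with Bmp2 11.3-fold and Dcn 10.2-fold higher and Vegfa 2.39-fold lower. Other matricellular genes rose in 8 and fell in 10 of 19, Cilp being 74.8-fold lower and Tnxb 31.2-fold higher. Regulators rose in 8 and fell in 15 of 25, but rose in 13 and fell in 9 with total counts. Beside these values, summed endothelial markers were at 858 to 877 CPM with TGF-b1 plus SB431542 and 177 to 181 CPM with TGF-b1, macrophage markers at 1100 to 1120 CPM and 623 to 640 CPM in the same groups, and adipocyte markers at 1250 to 1270 CPM and 105 to 110 CPM. Mesothelial markers, higher in 8 and lower in 2 of 10, summed to 2300 CPM with TGF-b1 plus SB431542 and 690 to 706 CPM with TGF-b1, and preadipocyte and fibroblast markers, higher in 11 and lower in 1 of 12, to 4110 to 4130 CPM and 1560 to 1580 CPM. The part of these cells in the values was not tested.

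Set against CD mock, TGF-b1 plus SB431542 left 4 members below the level of untreated cells. Ccn4 was 11.7-fold lower, at 20.4 ± 0.691 CPM with TGF-b1 plus SB431542 and 239 ± 3.54 CPM in CD mock (-3.55 ± 0.035 log2). Ccn5 was 8.52-fold lower, at 20.8 ± 1.68 CPM with TGF-b1 plus SB431542 and 178 ± 2.43 CPM in CD mock (-3.09 ± 0.040 log2). These were the 24th and 37th lowest fold changes of the 14078 genes. Ccn2 was 2.38-fold lower (-1.25 ± 0.011 log2) and Ccn1 1.36-fold lower (-0.44 ± 0.014 log2). Ccn3 was at 21.5 ± 2.91 CPM with TGF-b1 plus SB431542 and 17.8 ± 1.68 CPM in CD mock, and its libraries overlapped between the groups. Its change of 0.26 ± 0.083 log2 passed the test (edgeR adjusted p = 0.0067), but not without CD mock replicate 1 (0.20 log2, adjusted p = 0.0629) or without replicate 2 of TGF-b1 plus SB431542 (0.18 log2, adjusted p = 0.0922). The other 4 had an adjusted p of at most 2.72e-23, and 61% of all genes tested were called in this comparison, 30.6% higher and 30.4% lower. No overlap between the groups was found for 4 members and for 64% of all genes tested. By size, Ccn2, Ccn4 and Ccn5 were in the 2.84% of genes called at least 1 log2 unit lower.

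In the same comparison 21 of the 24 target genes of TGF-b and Smad were lower and 3 were higher (median -0.66 log2 against 0.01 over all genes tested), with Pmepa1 6.78-fold and the collagen gene Col1a1 4.32-fold lower. SRF and MRTF target genes were lower in 17 and higher in 3 of 20 (median -0.68), and YAP, TAZ and TEAD target genes were lower in 15 and higher in 2 of 20 (median -0.22), or 11 and 4 with total counts. Wnt target genes were higher in 8 and lower in 2 of 16 (median 0.33), or 10 and 0 with total counts, with Axin2, a feedback inhibitor of Wnt signalling, 2.70-fold higher. Regulators of CCN genes were lower in 14 and higher in 8 of 25, or 10 and 9 with total counts, among them Tead3 at 42.9 ± 2.58 CPM with TGF-b1 plus SB431542 and 67.2 ± 1.5 CPM in CD mock, and Klf15 4.54-fold higher. CCN receptors were higher in 9 and lower in 8 of 20, and extracellular partners were higher in 5 and lower in 8 of 16, or 6 and 6 with total counts. Other matricellular genes were higher in 4 and lower in 12 of 19, Cilp being 16.4-fold lower. All 12 adipocyte markers tested were higher (median 1.92 log2), and the list summed to 1250 to 1270 CPM with TGF-b1 plus SB431542 and 288 to 291 CPM in CD mock. Summed macrophage markers were at 1100 to 1120 CPM with TGF-b1 plus SB431542 and 556 to 570 CPM in CD mock, and endothelial markers at 858 to 877 CPM and 390 to 408 CPM in the same groups. Markers of preadipocytes and fibroblasts summed to 4110 to 4130 CPM with TGF-b1 plus SB431542 and 3130 to 3160 CPM in CD mock. This list was mixed, higher in 7 and lower in 3 of 12 (median 0.22 log2). Within it Dcn was at 1680 CPM with TGF-b1 plus SB431542 and 978 CPM in CD mock, and Pdgfrb at 783 and 850 CPM. Mesothelial markers were higher in 2 and lower in 6 of 10, summing to 2300 CPM with TGF-b1 plus SB431542 and 2540 to 2570 CPM in CD mock. Their part in the values was not tested.

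The comparison of HFD mock with CD mock bears on diet, in cells without added cytokine. All 5 members were higher in HFD cells, and Ccn5 changed most, at 627 ± 3.95 CPM in HFD mock and 178 ± 2.43 CPM in CD mock, a 3.54-fold rise (1.82 ± 0.020 log2). Ccn2 rose 2.46-fold (1.30 ± 0.0092 log2), Ccn1 rose 1.63-fold (0.71 ± 0.013 log2) and Ccn4 rose 1.43-fold (0.52 ± 0.020 log2). Ccn3 was at 24.6 ± 1.30 CPM in HFD mock and 17.8 ± 1.68 CPM in CD mock, a 1.37-fold rise (0.45 ± 0.080 log2) with an edgeR adjusted p of 8.01e-06. The adjusted p of the other 4 was at most 1.85e-23. In this comparison 53.7% of all genes tested were called, 27.1% higher and 26.6% lower, and the groups did not overlap in 58% of them. Ccn2 and Ccn5 were in the 4.37% called at least 1 log2 unit higher. Ccn3 and Ccn5 were therefore lower with TGF-b1 and higher in HFD mock, each relative to the same CD mock libraries, while Ccn1, Ccn2 and Ccn4 were higher in both.

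SRF and MRTF target genes rose in all 20 in HFD cells, or in 17 with 0 lower by total counts, with a median of 0.67 log2 against -0.01 over all genes tested. Cnn1 rose 5.25-fold and Actg2, a smooth muscle actin gene, 3.75-fold. TGF-b and Smad target genes rose in 17 and fell in 6 of 24 (median 0.33), with Tgfbi, a matrix protein, 5.84-fold and Acta2 2.44-fold higher, and Smad7 was at 114 ± 1.37 CPM in HFD mock and 88.8 ± 3.38 CPM in CD mock. YAP, TAZ and TEAD target genes rose in 13 and fell in 5 of 20 (median 0.15), Ankrd1 rising 4.20-fold, while the TAZ gene Wwtr1 was 1.30-fold lower. Wnt target genes rose in 4 and fell in 6 of 16 (median -0.39). CCN receptors rose in 9 and fell in 8 of 20, and the 2 that rose most, Itgam at 5.84-fold and Itgb2 at 3.09-fold, encode the chains of an integrin of myeloid cells. Extracellular partners rose in 8 and fell in 8 of 16, with Bmp4 3.02-fold lower. Regulators rose in 8 and fell in 5 of 25, or 7 and 9 with total counts. Other matricellular genes rose in 8 and fell in 10 of 19, with osteopontin, encoded by Spp1, 6.41-fold higher.

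Markers of other cell types differed widely between the diets. All 12 macrophage markers were higher in HFD mock, and their sum was 2630 to 2660 CPM in HFD mock and 556 to 570 CPM in CD mock, with Lyz2 the most abundant. All 10 mesothelial markers were lower, at a sum of 658 to 670 CPM in HFD mock and 2540 to 2570 CPM in CD mock, and all 9 endothelial markers were lower, at 125 to 133 CPM in HFD mock and 390 to 408 CPM in CD mock. Preadipocyte and fibroblast markers summed to 2320 to 2330 CPM in HFD mock and 3130 to 3160 CPM in CD mock, and adipocyte markers to 187 to 197 CPM and 288 to 291 CPM in the same groups. The part of these cells in the levels of the CCN genes was not tested.

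The comparison of Itga5-High with Itga5-Low cells after differentiation bears on precursors that differ in surface integrin alpha 5, a receptor subunit used by CCN proteins. Ccn3 was the member that differed most, 3.39-fold lower in Itga5-High, at 29.5 ± 1.24 CPM in Itga5-High and 99.5 ± 2.91 CPM in Itga5-Low (-1.76 ± 0.045 log2). It had the 56th lowest fold change of the 13468 genes tested. Ccn1 was 1.25-fold higher in Itga5-High (0.32 ± 0.013 log2), Ccn2 1.08-fold higher (0.11 ± 0.013 log2, edgeR adjusted p = 4.11e-07) and Ccn5 1.05-fold lower (-0.07 ± 0.012 log2, adjusted p = 1.16e-05). Ccn4 did not pass the test, at 111.5 ± 3.20 CPM in Itga5-High and 112 ± 1.72 CPM in Itga5-Low. Its difference of -0.0061 ± 0.030 log2 had a 95% interval of -0.07 to 0.05 and an adjusted p of 0.883. Of the 5 members, 2 were thus called higher and 2 lower, while 53.5% of all genes tested were called, 27% higher and 26.5% lower. Those 4 members were also without overlap between the groups, as were 58.2% of all genes tested. Ccn3 was in the 2.09% of genes called at least 1 log2 unit lower.

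Itga5 itself was at 472 ± 8.82 CPM in Itga5-High and 329 ± 4.68 CPM in Itga5-Low, a 1.43-fold difference in cells that had been sorted by its protein. YAP, TAZ and TEAD target genes rose in 4 and fell in 8 of 20 (median -0.06 log2 against -0.0033 over all genes tested), with F3, the tissue factor gene, 1.54-fold lower. TGF-b and Smad target genes rose in 11 and fell in 9 of 24, or 10 and 10 with total counts, with Timp1, an inhibitor of matrix metalloproteinases, 1.57-fold higher and Postn, the periostin gene, 1.42-fold lower. SRF and MRTF target genes rose in 8 and fell in 9 of 20, and Wnt target genes rose in 6 and fell in 5 of 14. Regulators rose in 4 and fell in 14 of 24, with Klf15 2.21-fold and Tead1 1.36-fold lower. CCN receptors rose in 5 and fell in 6 of 18, with Itga6 1.77-fold lower. Extracellular partners rose in 3 and fell in 9 of 13, Igf1 being 2.29-fold and the fibulin gene Fbln1 2.23-fold lower. Other matricellular genes rose in 8 and fell in 11 of 22, with tenascin C (Tnc) 1.72-fold higher and Cilp 9.35-fold lower. Adipocyte markers summed to 4910 to 4940 CPM in Itga5-High and 5410 to 5460 CPM in Itga5-Low, and macrophage markers to 43.9 to 44.9 CPM and 22.7 to 23.3 CPM in the same groups. The macrophage marker Csf1r was at 29.5 CPM in Itga5-High and 9.54 CPM in Itga5-Low, while Lyz2 was at 6.06 CPM and 6.02 CPM. Only 4 of the 12 macrophage markers were tested, of which 2 were higher and 2 were not called. Mesothelial markers summed to 101 to 104 CPM in Itga5-High and 42.1 to 45.2 CPM in Itga5-Low, nearly all of it from Krt19, at 99.3 CPM in Itga5-High and 40.1 CPM in Itga5-Low. Their part in the values was not tested.

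**Figure D2:**
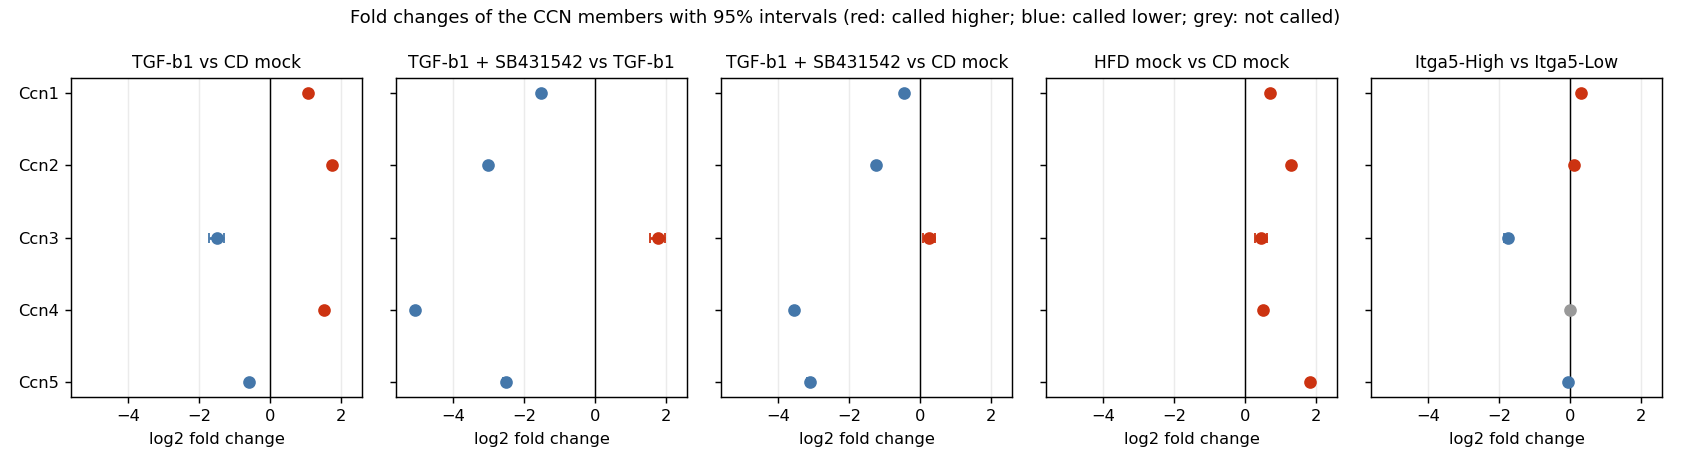
Log2 fold change of each member in the 5 comparisons, with 95% intervals, most of which are narrower than the point. Ccn4 reaches -5.07 when SB431542 is added to TGF-b1 and is the only member not called in Itga5-High against Itga5-Low (-0.0061), while in HFD mock against CD mock all 5 points lie above 0.

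The direction of these 25 fold changes was the same when libraries were scaled by total counts in place of TMM. That scaling put the median over all genes tested at -0.16 in place of -0.02 log2 in TGF-b1 against CD mock, at 0.30 in place of 0.04 log2 in TGF-b1 plus SB431542 against TGF-b1, and at 0.12 in place of 0.01 log2 in TGF-b1 plus SB431542 against CD mock. Ccn5 in TGF-b1 against CD mock, for example, was 1.65-fold lower by total counts and 1.49-fold lower by TMM.

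To compare the members with each other, CPM were divided by transcript length in kilobases and summed over the family. The sum was 467 ± 7.06 CPM per kilobase with TGF-b1 plus SB431542, 2543 ± 9.30 with TGF-b1 and 2168 ± 7.02 in HFD mock, against 968 ± 2.97 in CD mock. It was thus 2.63-fold higher with TGF-b1 and 2.24-fold higher in HFD mock than in CD mock, and with a different make-up in each. With TGF-b1, Ccn2 made up 65.0% of the sum and Ccn5 2.64%, whereas in HFD mock Ccn2 made up 55.8% and Ccn5 16.3%, against 50.7% and 10.3% in CD mock. With TGF-b1 plus SB431542, Ccn1 was the largest part at 50.6%, ahead of Ccn2 at 44.1%, and Ccn4 was at 0.877%, the smallest. The mean share of Ccn3 was 1.93% with TGF-b1 plus SB431542, 0.105% with TGF-b1 and 0.476% in HFD mock, against 0.774% in CD mock.

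In differentiated cells the sum was 1277 ± 9.08 CPM per kilobase in Itga5-High and 1229 ± 6.90 in Itga5-Low. Ccn5 led it in both, at 41.0% in Itga5-High and 44.7% in Itga5-Low. Ccn1 made up 31.4% in Itga5-High and 26.1% in Itga5-Low, Ccn2 24.9% and 23.96%, and Ccn3 0.969% and 3.40%. These shares were taken within each library and so do not depend on how the tables were scaled.

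**Figure D3:**
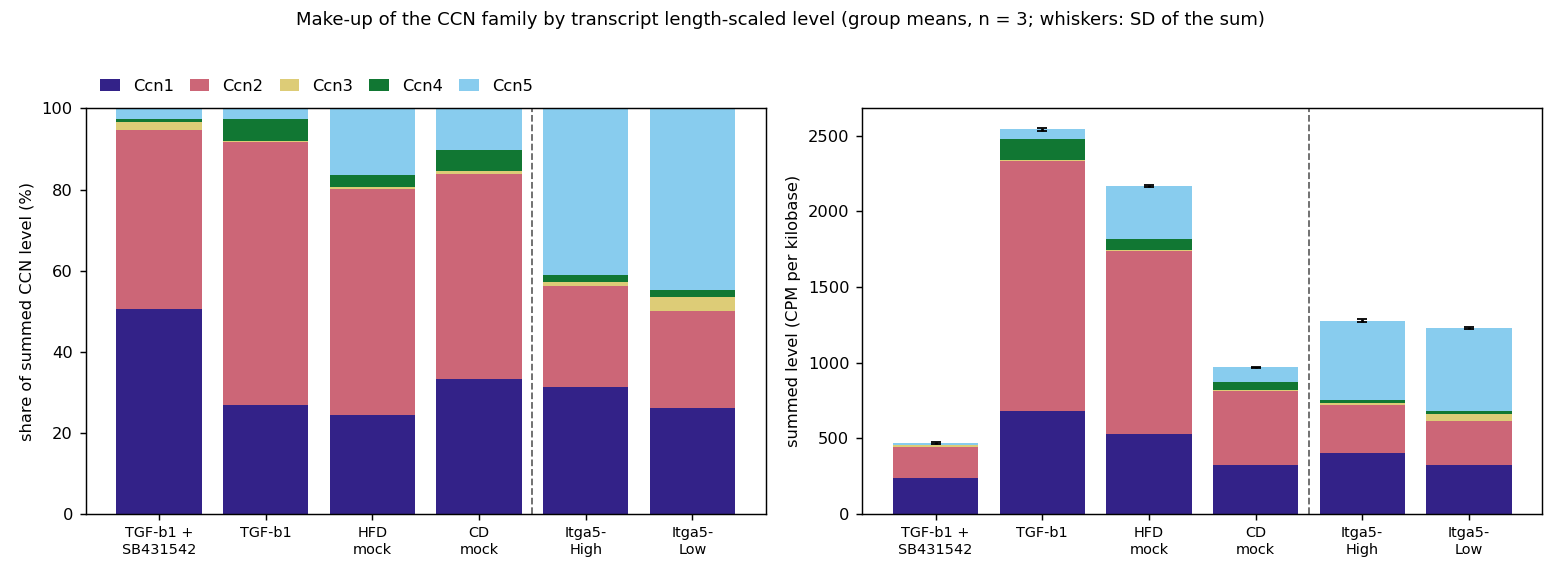
Share of each member in the summed CPM per kilobase (left, in percent) and the sum itself (right, with its SD), as means of 3 libraries per group. Ccn2 takes 65.0% with TGF-b1, and Ccn5 takes 2.64% with TGF-b1 and 44.7% in Itga5-Low, where the dashed line parts the separately scaled tables.

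Ccn4 alone was listed with more than 1 transcript, the coding NM_018865 of 5048 bases and the noncoding NR_157336 of 4856 bases. The noncoding transcript held 24.1% to 42.1% of the Ccn4 counts with TGF-b1 plus SB431542, 29.9% to 36.9% with TGF-b1 and 26.8% to 31.0% in HFD mock, against 33.8% to 38.6% in CD mock. It held 33.2% to 46.1% in Itga5-High, against 40.5% to 55.1% in Itga5-Low. The ranges overlapped in every comparison except HFD mock against CD mock, and because both transcripts span the same interval, their reads can be divided between them only by estimate.

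The genes nearest in pattern to each member were found among 9675 genes of at least 10 CPM, by the root mean square difference of centred log2 CPM over the 12 undifferentiated libraries. The pattern rests on 4 groups, and the libraries of a group share their treatment. Nearest to Ccn1 were Cd44, a hyaluronan receptor, at a difference of 0.05 log2, Tmsb4x, which encodes an actin-binding thymosin, at 0.06, and the matrix protease gene Adamts12 at 0.07. Cd44 had 169 CPM with TGF-b1 plus SB431542, 495 CPM with TGF-b1 and 349 CPM in HFD mock, against 229 CPM in CD mock. Nearest to Ccn2 were Ddah1, an enzyme that degrades an inhibitor of nitric oxide synthase, and Acta2, the smooth muscle actin of myofibroblasts, both at 0.10, and the transcription factor gene Foxc2 at 0.12. Acta2 had 880 CPM with TGF-b1 plus SB431542, 5820 CPM with TGF-b1 and 4580 CPM in HFD mock, against 1880 CPM in CD mock.

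Nearest to Ccn4 were the collagen crosslinking enzyme gene Lox at 0.14, the collagen-binding integrin gene Itga11 at 0.21, and Pmepa1 at 0.37. Lox had 305 CPM with TGF-b1 plus SB431542, 8150 CPM with TGF-b1 and 5210 CPM in HFD mock, against 3360 CPM in CD mock. Nearest to Ccn3 were Adamts2, which processes procollagen, at 0.13, the laminin gene Lama5 at 0.14 and the cytokine signalling inhibitor Socs3 at 0.15. Adamts2 had 734 CPM with TGF-b1 plus SB431542, 193 CPM with TGF-b1 and 786 CPM in HFD mock, against 604 CPM in CD mock. Ccn5 had no such close neighbour. Its nearest genes were Hhipl1, Slc1a6 and the chemokine gene Cxcl14 at 0.73 to 0.76, all of which were higher with TGF-b1 than in CD mock where Ccn5 was lower. With a minimum of 50 CPM only 1 of the 3, Cxcl14, was among its 10 nearest. Hhipl1 and Slc1a6 averaged less than that minimum and were no longer candidates, so their absence does not bear on their closeness.

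**Figure D4:**
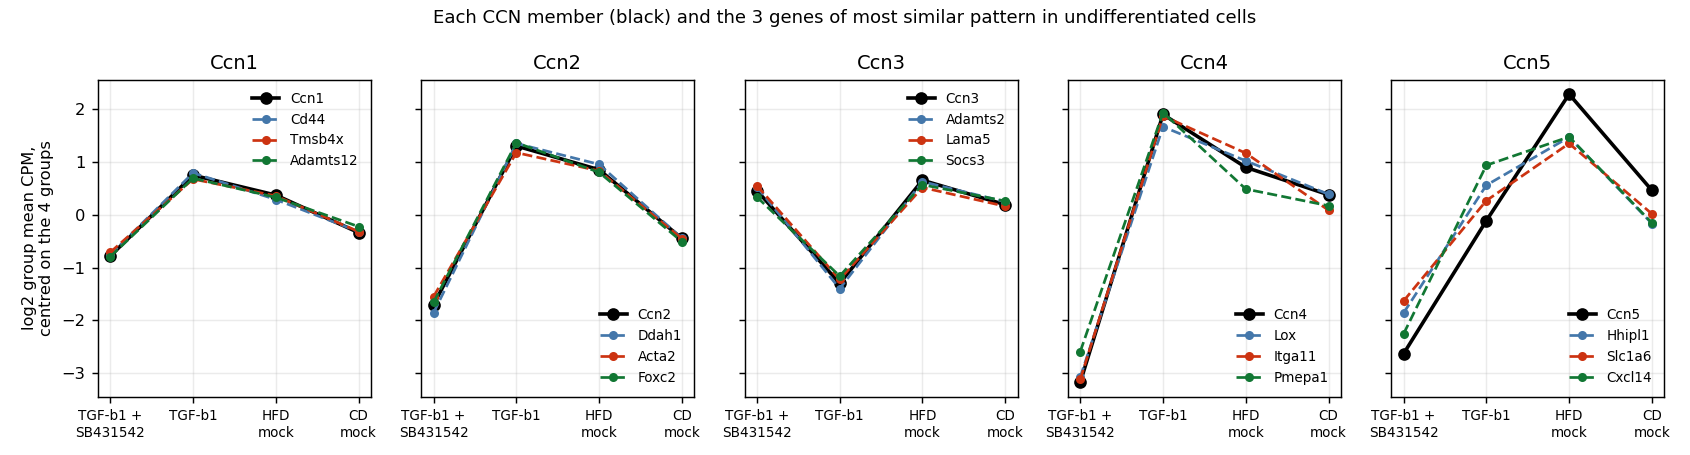
Log2 group mean CPM, centred on the 4 undifferentiated groups, for each member (black) and its 3 nearest genes (dashed). The lines of Ccn1 to Ccn4 run close to their neighbours, at root mean square differences of 0.05 to 0.37, while Ccn5 stands apart at 0.73 or more.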

How the data were processed

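Poly(A) RNA of 18 mouse preadipocyte libraries had been processed by the authors with fastp, STAR and featureCounts on genome build mm10, per the submitters' processing notes. Neither tool versions, strandedness nor the way reads were divided among transcripts is stated there. The authors deposited estimated counts per RefSeq transcript, unscaled, in a table of 12 undifferentiated libraries (11154450 to 16130949 counts) and a table of 6 differentiated libraries (12043449 to 17288614 counts). Values were summed per gene symbol with pandas 2.3.3 in Python 3.11.15 and rounded to whole counts. Every row named a gene.

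Each table was fitted in R 4.3.3 with edgeR 4.0.16 (filterByExpr, TMM, glmQLFit and glmQLFTest, 2-sided, no minimum fold), with 1 coefficient per group. Benjamini-Hochberg adjustment ran over the 14078 and 13468 genes tested. The dispersion was below 1e-04 for 3780 and 1746 genes, where p-values are less exact, so standard errors and intervals come from a fit kept at 1e-04 or above. Ccn1, Ccn2, Ccn4 and Ccn5 were among these genes in both tables. The adjusted p-values of the members come from the fit without that limit. With the limit, 5 members were called in each comparison of undifferentiated cells and 4 in Itga5-High against Itga5-Low, as without it. DESeq2 1.42.0, other scalings, no filter, single comparisons, a replicate block and leaving out libraries were alternatives. Counting error is part of the spread between libraries. The scripts were tested on simulated data.

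The members and gene lists were chosen with earlier results of these data known. Named from each list were up to 2 called genes per direction of largest change with at least 10 CPM, not all of which are printed. Check genes were Itga5 and Smad7. The promoter motifs were chosen for their known roles. Of the 5 members, 1 matched the RefSeq promoter table. Figures were drawn with matplotlib 3.10.9.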

Additional observations from a re-analysis of the deposited data

How the results depend on the processing

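Of 320 alternative values of the 25 fold changes, 316 kept their direction and their side of the threshold. The exceptions came from leaving out 1 library. Ccn3 in TGF-b1 plus SB431542 against CD mock no longer passed without CD mock replicate 1 (0.195 log2, edgeR adjusted p = 0.0629) or without replicate 2 of TGF-b1 plus SB431542 (0.179 log2, adjusted p = 0.0922), and its adjusted p ranged from 0.000179 to 0.0922 over all alternatives. Ccn4 in Itga5-High against Itga5-Low, which was not called, turned positive without Itga5-High replicate 1 (0.0173 log2, adjusted p = 0.717) and without Itga5-Low replicate 3 (0.00479 log2, adjusted p = 0.922), within a range of -0.0258 to 0.0173 over the libraries left out. Leaving out each library in turn, the number of members called was 4 to 5 in TGF-b1 plus SB431542 against CD mock, 4 to 4 in Itga5-High against Itga5-Low and 5 to 5 in the other 3 comparisons.

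Same-numbered libraries had correlations of deviations from their group means of -0.0218 to 0.0242. Those deviations were close to sampling noise, so the correlations cannot show whether the replicate numbers pair the libraries. With the replicate number as a block, 5 members were called in each comparison of undifferentiated cells and 4 in Itga5-High against Itga5-Low, as without it.

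With total counts in place of TMM, member levels were 0.921 to 1.1 times those given, 22 of 30 levels moved by more than the SD between replicates, and 9 of 140 list counts moved by more than 1.5 times. Over all genes tested, DESeq2 called 8719, 10918, 7575, 6586 and 5888 genes where edgeR called 9517, 11223, 8587, 7566 and 7199, in the order in which the comparisons are described. Depth limits Ccn3 most, with as few as 72 counts in a library, and Ccn6 was too low to test. Because replicates may be technical, small differences such as those of Ccn2 and Ccn5 between the sorted groups measure these libraries only.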
